A study of Arabidopsis thaliana with 124 samples.

Results

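The WRKY genes encode one of the large transcription factor families of plants. Their members were looked up as binding targets of 21 other transcription factors in seedlings of Arabidopsis thaliana, treated or not with the drought and dormancy hormone abscisic acid (ABA). Of 27444 protein-coding genes on chromosomes 1 to 5, 67 carry a gene symbol made of WRKY and a number, and these were taken as the members. A further 5 genes carry such a name only as a synonym and are given apart. Each tagged line was a Col-0 seedling with 1 factor fused to the fluorescent protein YPet by recombineering, grown in the dark for 3 days and given 10 µM ABA or ethanol alone (EtOH, the mock treatment) for 4 h. Chromatin of whole seedlings was precipitated with an antibody against GFP and sequenced (ChIP-seq). Among the tagged factors, ABF1, ABF3, ABF4, GBF2 and GBF3 are bZIP proteins. HB5, HB6, HB7 and HAT22 have a homeodomain with a leucine zipper. ANAC032, ANAC102 and RD26 belong to the NAC family, MYB3 and MYB44 are MYB proteins and AT5G04760 is MYB-related. NFYB2 and NFYC2 are subunits of NF-Y. The others are DREB2A (AP2/ERF), HSFA6A (heat shock factor), ZAT6 (zinc finger) and FBH3 (basic helix-loop-helix). The labels list 3 libraries per factor and treatment for 19 factors and 2 for the other 2 factors (ANAC102 and ZAT6). They also list 2 libraries of untagged Col-0, both labelled with ABA, which were not analysed here. The replicates of a factor and treatment were pooled by the authors into 1 peak list, so a gene either has or lacks a factor in a list and this call has no replicate error.

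WRKY proteins bind DNA through a domain that holds the amino acids of their name and a zinc finger, and most recognise a short element called the W-box. Many respond to pathogens, salicylic acid, drought, heat or ageing, and several act on ABA responses in seeds and guard cells. The family is divided by the number and kind of its domains into the groups I, IIa, IIb, IIc, IId, IIe and III. None of the 21 tagged factors is a WRKY protein, so the data show what was found at WRKY genes and not where WRKY proteins bind.

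A factor was counted at a gene when the summit of one of its peaks lay in the gene or within 2000 bp on either side. Most WRKY genes had many of the 21 factors. Under ABA 63 of the 67 members had at least 1 factor, as did 87.3% of all genes, and under EtOH 61 members did, against 82.1% of all genes. At least 10 factors were found at 45 members under ABA (67.2%), against 48.1% of all genes, and at 29 members under EtOH (43.3%), against 30.3%. The median member had 14 factors under ABA and 9 under EtOH, and the median over all genes was 9 and 5. At least 18 factors were found under ABA at 18 members (26.9%) and at 12.3% of all genes. The median gene length was 2006 bp for the members and 2078 bp for all genes, and whether gene length bears on the counts was not tested. No test was made of the differences in factor number from other genes. The lists of different factors overlap widely, so the factors at a gene are not independent observations.

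**Figure D1:**
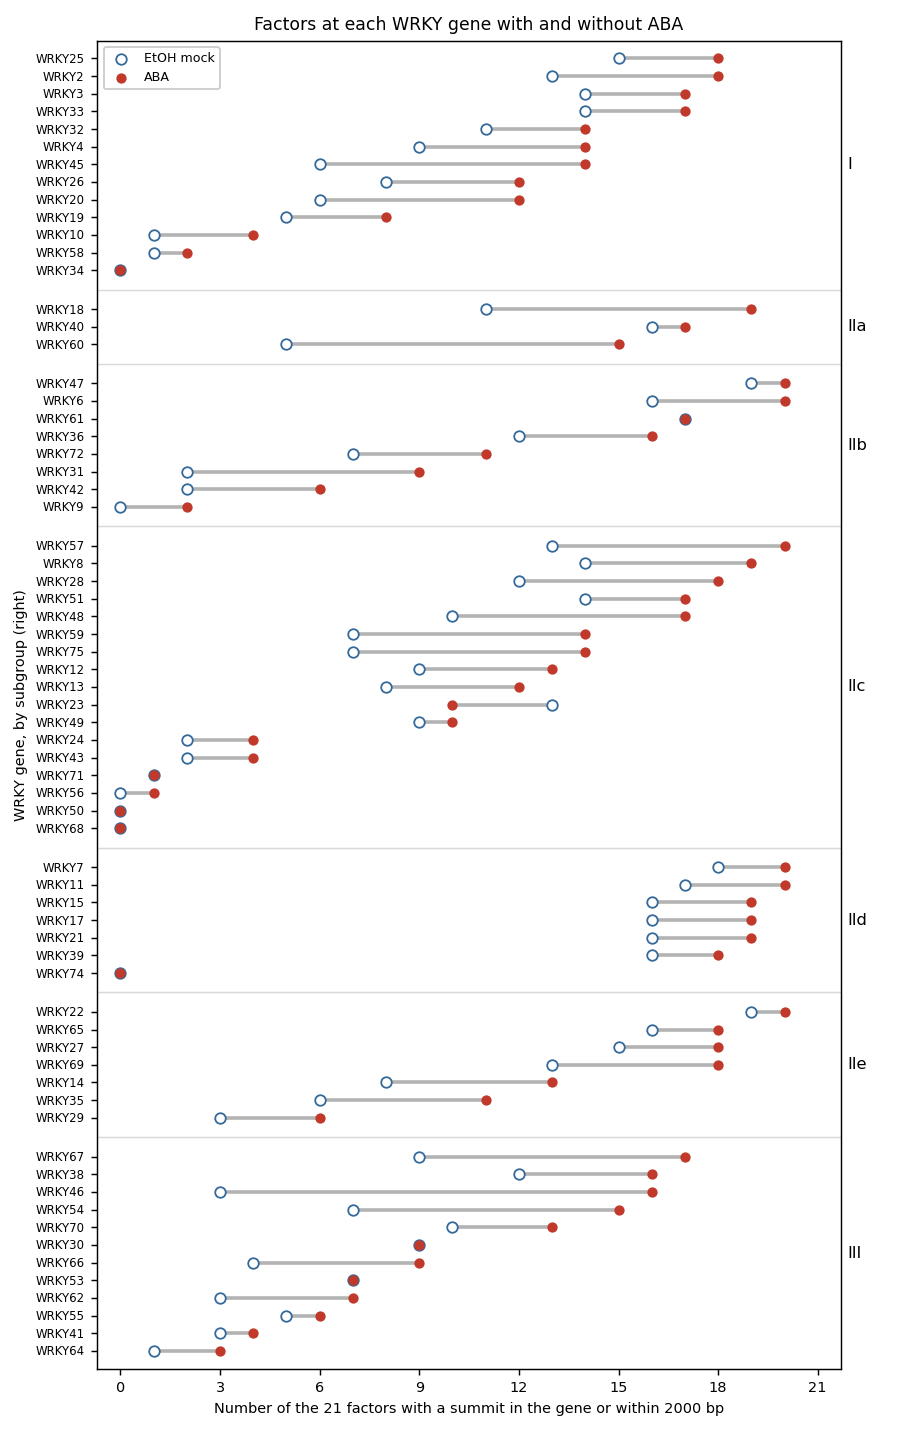
Number of the 21 factors with a peak summit in each of the 67 WRKY genes or within 2000 bp, under EtOH (open circles) and ABA (filled circles), by subgroup. Most members moved to the right under ABA, WRKY46 the farthest (3 to 16 factors), while WRKY23 moved from 13 to 10, and 4 members had no factor in either treatment.

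The members of subgroup IId, whose proteins carry a calmodulin-binding stretch, had the most factors. WRKY7 and WRKY11 had 20 under ABA, WRKY15, WRKY17 and WRKY21 had 19, and WRKY39 had 18. Under EtOH these 6 genes had 16 to 18 factors. With each summit given to its nearest gene alone, WRKY39 had 5 factors in each treatment. By the same count WRKY15 had 14 under ABA and 8 under EtOH and WRKY21 had 15 and 10, while WRKY7, WRKY11 and WRKY17 kept all of theirs. WRKY11 and WRKY17 encode repressors of basal resistance to bacteria. The remaining member of the subgroup, WRKY74, had no factor in any list. Subgroup IIe was next, with a median of 18 factors under ABA and 13 under EtOH over its 7 members. It includes WRKY22, which acts downstream of flagellin perception, with 20 and 19 factors, and WRKY29 of the same response, with 6 and 3.

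Subgroup IIa holds WRKY18, WRKY40 and WRKY60, which form complexes with each other and repress both defence and ABA-responsive genes. All 3 had at least 15 factors under ABA. Subgroup IIb had a median of 13.5 under ABA and 9.5 under EtOH over 8 members, with WRKY6 and WRKY47 at 20 under ABA and WRKY9 at 2. Group I, most of whose proteins have a pair of WRKY domains, had 14 and 8 over 13 members, and IIc, the largest subgroup here with 17 members, had 12 and 8. Group III was lowest under ABA, with a median of 9 and 6 over 12 members, and none of its members reached 18 factors. Within each subgroup of 7 or more members the range was wide, from 0 to 20 under ABA in both IIc and IId.

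The 4 members without any factor in either treatment were WRKY34, known from pollen, and WRKY50, WRKY68 and WRKY74. WRKY71 had NFYB2 alone in both treatments. WRKY56 had MYB3 under ABA and nothing under EtOH, and WRKY9 had GBF3 and ZAT6 under ABA and nothing under EtOH. WRKY10, which controls seed size through the endosperm, had 4 factors under ABA (GBF2, GBF3, HB7 and AT5G04760) and 1 under EtOH. With each summit given to its nearest gene alone, WRKY10 had 0 under ABA and 1 under EtOH, and WRKY71 had 0 in both. A short or empty entry means that no summit passed the authors' cutoff in the seedlings used.

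The 5 genes named WRKY only by synonym spanned the same range. ABO3 (WRKY63), which takes part in ABA responses and drought tolerance, had 18 factors in both treatments. ZAP1 (WRKY1) had 17 under ABA and 13 under EtOH, and TTG2 (WRKY44), a gene of trichomes and seed coats, had 10 and 7. The resistance genes RRS1 (WRKY52) and TTR1 (WRKY16), which join a WRKY domain to an immune receptor, had 4 and 1 factors in both treatments.

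The comparison of treatments asked which WRKY genes had more factors with ABA. More factors under ABA than under EtOH were found at 58 of the 67 members (86.6%), against 75.5% of all genes, equal numbers at 8, against 20.8%, and fewer at 1, against 3.67%. Over the members, 261 calls of a factor at a gene were found under ABA alone and 27 under EtOH alone, so 90.6% of the changed calls were gains, and over all genes the share was 91.0%. The median net change was 3 factors for the members and 2 for all genes. A net gain of at least 7 factors was found at 11 members (16.4%) and at 8.59% of all genes.

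For each gene the factors gained and lost were compared by a two-sided exact sign test with the factor as the unit, adjusted by the Benjamini-Hochberg method over the 24128 genes with any factor. No member and no other gene passed, and the lowest adjusted p was 0.149 (exact sign test, 21 factors). At an unadjusted p below 0.05, 13 of the 63 members with any factor (20.6%) had more gains, against 16.1% of the genes tested, and none had more losses, against 0.0207%. The share of all genes that passed after adjustment was 0.0%. The unit of the test is the factor, so its p-values say nothing of the spread over replicate libraries. The test also takes the factors as independent and gains and losses as equally likely. Over all genes 91.0% of the changed calls were gains, and the lists of different factors overlap widely. A low p thus does not by itself set a gene apart.

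The ABA lists of most factors are longer than their EtOH lists, and whether this underlies the gains was not tested. Cutting a longer list can also remove binding that is real. When the longer list of each factor was trimmed to as many peaks as the shorter, keeping those with the highest −log10 p, 27 members (40.3%) had more factors under ABA, 18 (26.9%) had fewer, and the median was 9 in both treatments. Over all genes the shares were 32.4% and 27.1%. With these lists no member had an unadjusted p below 0.05, and over all genes 0.794% had one with more gains. The largest net gain was then 5 factors, for WRKY28, WRKY31, WRKY45, WRKY46 and WRKY67. The most negative change was 4 factors fewer, for WRKY23. Of the 58 members with a net gain in the lists as deposited, 14 had a net loss with equal lists. How this count compares with all genes was not tested. The numbers of factors given below are those of the lists as deposited unless equal lists are named.

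**Figure D2:**
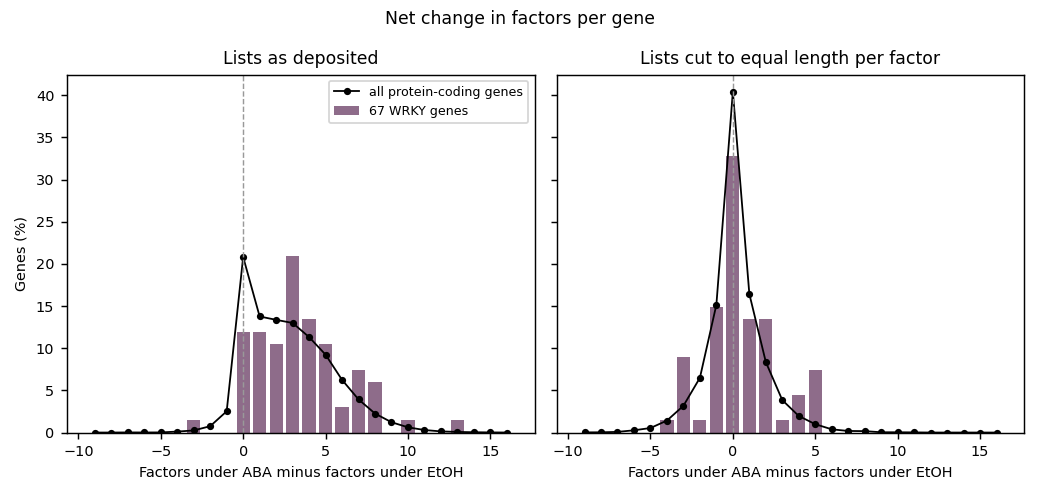
Net change in factors per gene (ABA minus EtOH) for the 67 WRKY genes (bars) and all protein-coding genes (line), in percent of genes, with the lists as deposited (left) and cut to equal length per factor (right). As deposited 86.6% of the WRKY genes lie above 0, and with equal lists 40.3% do.

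WRKY46 had the largest net gain. It encodes a group III protein that acts in osmotic stress, stomatal opening and brassinosteroid-regulated growth together with WRKY54 and WRKY70. Under EtOH its factors were GBF3, HB5 and MYB44, and under ABA these 3 were kept and 13 were added (exact sign test, p = 0.000244, adjusted p = 0.149). The added factors were ABF1, ABF3, ABF4, GBF2, HB6, HB7, HAT22, RD26, AT5G04760, NFYB2, DREB2A, HSFA6A and ZAT6. Only 35 of the 27444 genes had a net gain as large. Of the 16 factors under ABA, 11 had a summit within 220 bp of each other, on chromosome 2 from 19045295 to 19045515 (TAIR10). The distance of such a site from a gene is given here by its median summit, which lay 491 bp outside WRKY46. A second group of 4 factors (ABF1, ABF4, GBF2 and NFYB2) lay at 19046548 to 19046612. HSFA6A and NFYB2 had summits at 19043118 to 19043132, 286 bp from the gene on its opposite side. With equal lists WRKY46 had 8 factors under ABA and 3 under EtOH. The gene of the tagged factor GBF3 lies 40 kb away, and no peak wider than 5000 bp had its summit at WRKY46.

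Both partners of WRKY46 had factors under EtOH already. WRKY54 had 7 and gained ABF1, ABF3, HB5, HB6, HB7, ANAC032, MYB44 and NFYC2 for a total of 15 (exact sign test, p = 0.00781, adjusted p = 0.157). It had 11 and 7 with equal lists. Of the 34 summits at WRKY54, 6 were also counted at WRKY55. The HB5 call at WRKY54 under ABA rests on these shared summits alone. WRKY70, which balances salicylic acid against jasmonate responses, had 13 under ABA and 10 under EtOH, and 11 and 10 with equal lists. At WRKY70 the 12 factors of its main site lay within 240 bp across the end of the gene, with 9 of the 22 summits inside it. WRKY53, a regulator of leaf senescence in the same group, had 7 factors in both treatments. It gained HB7 and RD26 and lost ABF4 and HAT22. For both lost factors an ABA peak still overlapped the window, and for RD26 an EtOH peak did. With equal lists WRKY53 had 4 under ABA and 7 under EtOH.

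WRKY60 had the next largest net gain. Its 5 factors under EtOH were ABF3, GBF2, GBF3, MYB3 and MYB44, and under ABA it gained ABF1, ABF4, HB7, HAT22, ANAC032, ANAC102, RD26, AT5G04760, NFYB2 and ZAT6 without a loss (exact sign test, p = 0.00195, adjusted p = 0.149). All 15 factors under ABA had a summit at one site, on chromosome 2 from 10628958 to 10629278, 490 bp outside the gene, and 4 did under EtOH. With each summit given to its nearest gene alone WRKY60 had 9 factors under ABA and 2 under EtOH, so part of that site lies closer to a neighbour. With equal lists it had 9 and 5.

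WRKY18 went from 11 to 19 factors, again with no loss (exact sign test, p = 0.00781, adjusted p = 0.157). The 8 added factors were ABF1, HB7, ANAC032, ANAC102, MYB3, NFYC2, DREB2A and HSFA6A. Of the 19, 12 had a summit on chromosome 4 from 15381922 to 15382237, where 4 factors were found under EtOH. ABF3, GBF2 and GBF3 lay at a separate site from 15381515 to 15381642 in both treatments. With equal lists WRKY18 had 12 and 11 factors.

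WRKY40, the third of the complex, was already at 16 factors under EtOH and had 17 under ABA. It gained ABF1, of which an EtOH peak already overlapped the window, and ANAC032, and lost FBH3. With equal lists it had 14 under ABA and 15 under EtOH. Most lay at one site whose median summit was 105 bp outside the gene and which held 1 summit inside it, on chromosome 1 from 30383345 to 30383561, with 14 factors under ABA and 16 under EtOH. A second site from 30382620 to 30382763, 857 bp outside the gene, held ANAC032, ANAC102, GBF3 and NFYB2 under ABA and no factor under EtOH. The 3 related genes thus had 5, 11 and 16 factors under EtOH and 15, 19 and 17 under ABA.

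**Figure D3:**
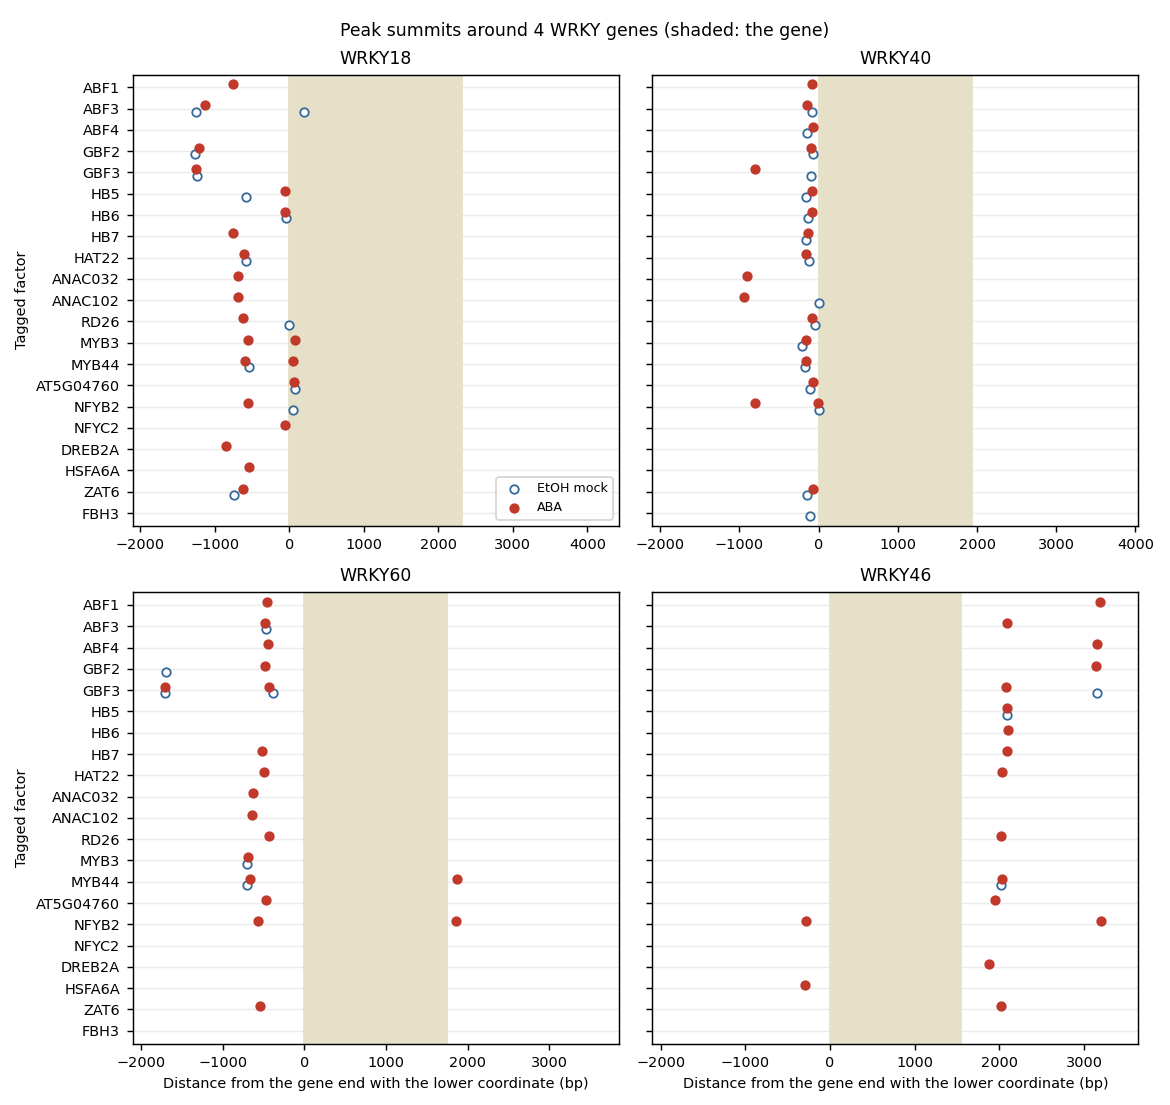
Position of each factor's peak summits around WRKY18, WRKY40, WRKY60 and WRKY46, as the distance in bp from the gene end with the lower coordinate, under EtOH (open circles) and ABA (filled circles). The added summits at WRKY60 fall mostly on 1 column 490 bp from the gene, and those at WRKY46 mostly on 2 columns on the other side of the gene. At WRKY46 HSFA6A and NFYB2 also have a summit on the side of the lower coordinate.

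Other members with a net gain of at least 7 belong to several subgroups. WRKY45 and WRKY75, both linked to phosphate uptake, had 14 factors under ABA and 6 and 7 under EtOH. With equal lists WRKY45 had 11 and 6, and WRKY75 had 8 and 7. WRKY45 gained 9 factors and lost RD26, and WRKY75, also a promoter of senescence, gained 8 and lost NFYB2. For both lost factors an ABA peak still overlapped the window, as an EtOH peak did for 1 gained factor of each gene. WRKY67 went from 9 to 17, and had 14 under ABA and 9 under EtOH with equal lists. All 17 had a summit at a site 1691 bp outside the gene, and in a window of 1000 bp WRKY67 had 6 and 2 factors. WRKY59 went from 7 to 14, and had 10 and 7 with equal lists. WRKY48 went from 10 to 17, and with equal lists it had 9 under ABA and 10 under EtOH. WRKY31 went from 2 to 9, with 7 and 2 in equal lists, and 9 of its factors lay within 87 bp of each other, 134 bp outside the gene.

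WRKY57, which raises drought tolerance and delays jasmonate-induced senescence, went from 13 to 20 factors. It gained ABF1, HB7, HAT22, ANAC032, MYB3, DREB2A and HSFA6A and lacked FBH3 alone. Its main site, on chromosome 1 from 26058937 to 26059360, held 17 factors under ABA and 10 under EtOH, and 8 more sites lay in the window. With equal lists WRKY57 had 17 and 13.

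Among further members tied to ABA, stress or ageing, WRKY6, a regulator of senescence and seed germination, had 20 factors under ABA and 16 under EtOH, and 18 and 16 with equal lists. WRKY2, which acts in seed germination and pollen, had 18 and 13, and 14 and 13 with equal lists. WRKY8, of salt tolerance, had 19 and 14, and 16 and 14 with equal lists. WRKY28, which acts on salicylic acid synthesis, had 18 and 12, and 17 and 12 with equal lists. WRKY33, the regulator of camalexin and of resistance to necrotrophic fungi, had 17 and 14, and 15 and 14 with equal lists. Of the heat-response genes, WRKY25 had 18 under ABA and 15 under EtOH, and WRKY26 had 12 and 8. With equal lists both had fewer under ABA, 14 against 15 for WRKY25 and 5 against 8 for WRKY26. All 18 factors at WRKY25 shared one site of 145 bp across the end of the gene, with 4 of its 33 summits inside. When each summit counted for its nearest gene alone, WRKY25 kept 2 factors in each treatment, so that site lies still closer to the next gene.

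WRKY23, an auxin-responsive gene of root development, was the one member with fewer factors under ABA, 10 against 13. It lost HAT22, RD26, MYB44 and ZAT6 and gained ANAC032. For all 4 lost factors a peak of the ABA list still overlapped the window while its summit lay outside it. Counted by peak overlap in place of summits, WRKY23 had 19 factors under ABA and 15 under EtOH. Of all 27 losses at members, 14 (51.9%) still had an overlapping ABA peak of the same factor. Of the 261 gains, 17 (6.51%) had an overlapping EtOH peak. Neither share was computed over all genes. The next members in order of net change had equal numbers in both treatments. They were WRKY61 (17 factors), WRKY30 (9), WRKY53 (7) and WRKY71 (1).

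The factors at a WRKY gene shared places in it. Summits of all 42 lists were joined into a site where neighbours lay within 200 bp of each other, which gave 206 sites at the 63 members with any factor and a median of 3 sites per member. The site with the most summits had a median span of 143 bp, and its median summit lay outside the gene for 55 of the 63 members. Of all summits under ABA 16.8% lay inside the gene, and the others lay at a median of 703.5 bp from it. Under EtOH 19.4% lay inside. The table of genes used here holds no strand, so the side of the gene was not named upstream or downstream.

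Gains fell mostly on sites in use. Of the 206 sites, 159 had a summit in both treatments, 37 under ABA alone and 10 under EtOH alone. Of the 261 gained calls, 243 (93.1%) had a summit at a site where some factor was found under EtOH. The 37 sites of ABA alone had at most 4 factors, the 4 at WRKY40 given above. Sites with at least 10 factors over both treatments were found at 40 members. These sites were built from the same summits as the calls, so the shares are a description. They were counted at the members alone, and how they compare with all genes was not tested.

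WRKY22 had a dense site. Its summits of 18 factors under ABA and 17 under EtOH lay within 46 bp, on chromosome 4 from 525326 to 525372, 1096 bp outside the gene. It was the member peak with the highest −log10 p in the lists of FBH3 (rank 6 of 194 under ABA and 23 of 1084 under EtOH), of ABF1 (31 of 8512 under ABA and 8 of 2494 under EtOH), and of HSFA6A under EtOH (12 of 32), where WRKY22 was the only member. The ranks are places in the authors' order within a list. With the window narrowed to 1000 bp this site drops out and WRKY22 has 3 factors in each treatment. A window of 500 bp lowered others as well, to 6 and 5 factors for WRKY18, 5 and 5 for WRKY28, 9 and 9 for WRKY57 and 3 and 2 for WRKY75. The gene of the tagged GBF2 lies 38 kb away.

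WRKY47 and WRKY7 had dense sites too. At WRKY47, 20 factors under ABA and 19 under EtOH lay within 265 bp on chromosome 4 from 744063 to 744328, 626 bp outside the gene. WRKY7 was unlike them in that 73 of its 83 summits lay inside the gene. Its main site, on chromosome 4 from 12571629 to 12571753, held 20 factors under ABA and 17 under EtOH. It was the strongest member peak in the ABA lists of HB5, HB6, HB7, HAT22, NFYC2 and ZAT6, for which it ranked 34 of 11512.

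Other strongest peaks of a factor's ABA list lay at single members. NFYB2 was strongest at WRKY2, with an authors' fold enrichment of 11.4 and rank 150 of 18096, and MYB44 at WRKY51, with rank 44 of 11479. ANAC032, ANAC102 and MYB3 were strongest at WRKY11, with ranks 66 of 7977, 72 of 4793 and 176 of 6213. The ANAC032 peak is 6246 bp wide, and WRKY11 is the one member with summits of peaks wider than 5000 bp, 2 in all. Without such peaks it had 19 factors under ABA. DREB2A was strongest at WRKY26 (rank 113 of 1517) and HSFA6A at WRKY61 (rank 99 of 1861). The remaining factors had their strongest member peak at WRKY67 (ABF3), WRKY61 (ABF4), WRKY20 (GBF2), WRKY23 (GBF3), WRKY15 (RD26) and WRKY14 (AT5G04760).

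WRKY6 was compared with the other members over its 42 calls, as 1 of 6 members with 20 factors under ABA and the first by gene code. The most alike was WRKY11, with 36 of 37 lists shared (Jaccard index 0.973). WRKY65 followed with 34 of 36 (0.944), then WRKY15, WRKY17 and WRKY21, tied at 34 of 37 (0.919). Members with many factors must resemble each other by this measure.

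**Figure D4:**
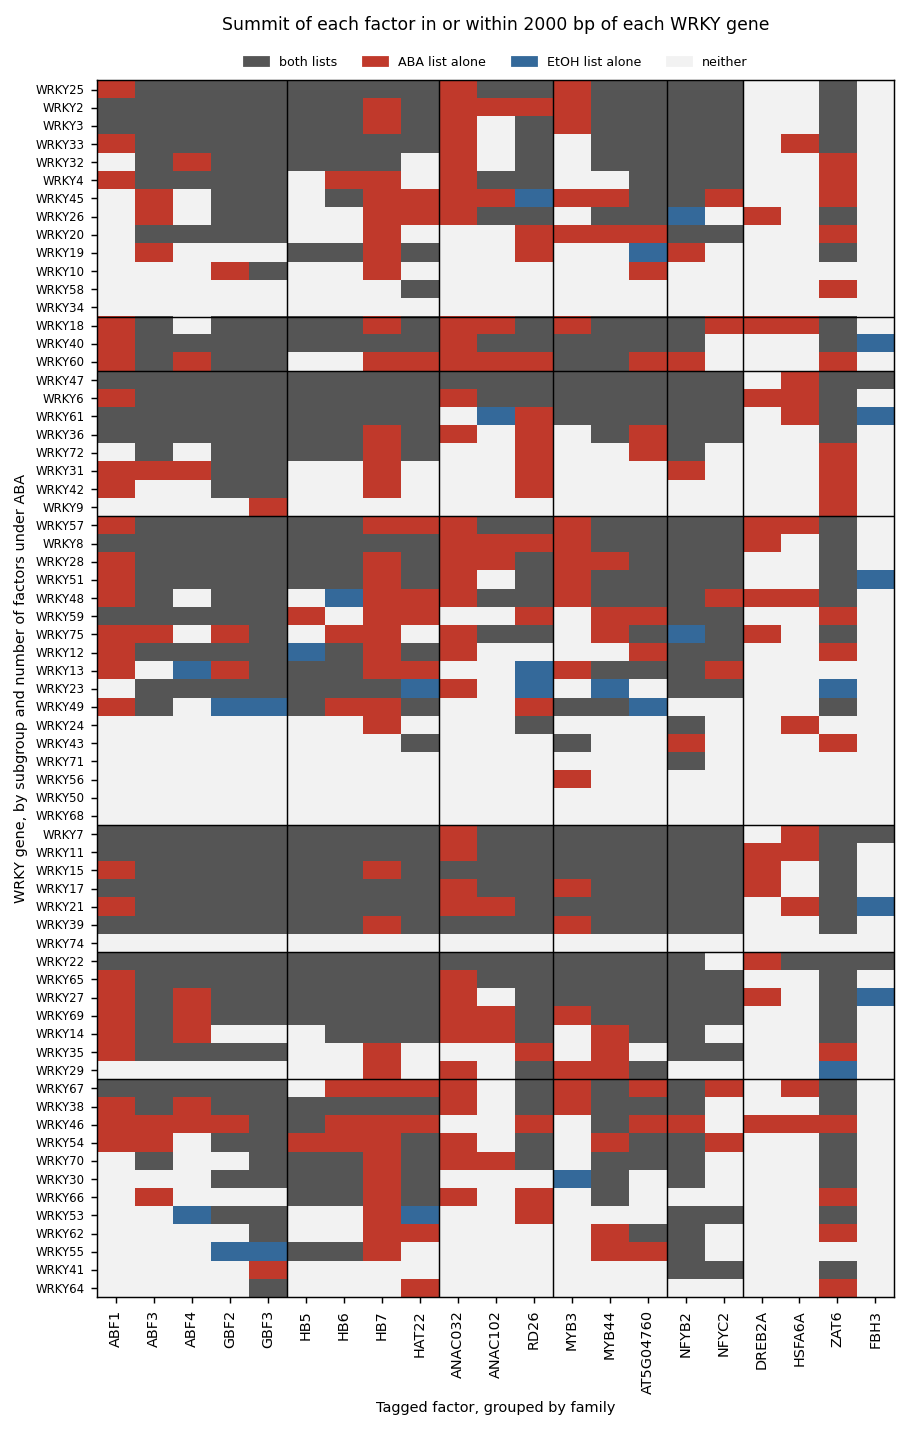
Presence of a summit of each of the 21 factors at each of the 67 WRKY genes, in both lists, in the ABA list alone, in the EtOH list alone or in neither. The columns of HB7, ANAC032 and ABF1 hold 99 of the 261 calls found under ABA alone, and FBH3 has 5 of its 8 calls under EtOH alone.

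Seen by factor, ZAT6, a zinc finger protein of stress and phosphate responses, was found at 55 members under ABA (82.1%), against 52.6% of all genes, and at 39 under EtOH (58.2%), against 24%. The difference of 29.5 percentage points under ABA and 34.3 under EtOH was the largest of any factor in both treatments. HB7, an ABA-induced homeodomain protein, was at 56 members under ABA (83.6%, all genes 61.1%) and 19 under EtOH (28.4%, all genes 19.1%). HAT22 was at 46 under ABA (68.7%, all genes 43%) and 37 under EtOH (55.2%, all genes 34.9%). NFYB2, which has the longest lists and whose ABA and EtOH lists start at unlike −log10 p (19.25 and 17.58), was at 52 under ABA (77.6%, all genes 74%) and 49 under EtOH (73.1%, all genes 65.7%). The share of WRKY genes was above that of all genes for 21 of the 21 factors under ABA and for 20 under EtOH, where DREB2A, with 15 peaks, had no member. The median difference was 15 points under ABA and 10.7 under EtOH, and it was not tested.

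The bZIP factors bind ABA-responsive and related elements. GBF3 was at 52 members in both treatments (77.6%), against 65.8% of all genes under ABA and 61.8% under EtOH, with lists that start at 17.98 under ABA and at about 16 under EtOH. GBF2 was at 47 and 45 members (all genes 50.1% and 48.7%) and ABF3 at 47 and 39 (54% and 45.1%). ABF4 was at 36 and 30 (43.4% and 33.4%). ABF1 went from 13 members under EtOH (all genes 14.6%) to 40 under ABA (41.9%). Its 27 gains make up 40.3% of the members, and over all genes it gained 27.5%. Its list has 2494 peaks under EtOH and 8512 under ABA, and with equal lists it was at 13 and 17 members.

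The NAC factor ANAC032 went from 4 members (all genes 4.58%) to 39 (39.3%), with lists of 801 and 7977 peaks, and with equal lists it was at 4 and 8. RD26 was at 35 members under EtOH and 48 under ABA (all genes 37.5% and 55.9%), and ANAC102 at 17 and 26 (15.5% and 25.3%). HB7, ANAC032 and ABF1 together gave 99 of the 261 gains (37.9%), and 34.6% of the gains over all genes. HB7 with equal lists was at 19 and 22 members. The related HB5 and HB6 changed less, with 37 and 38 members under EtOH (46% of all genes for each) and 38 and 43 under ABA (44.5% and 53%).

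Of the MYB proteins, MYB3, a repressor of phenylpropanoid genes, was at 15 members under EtOH and 33 under ABA (all genes 17.5% and 30.8%). MYB44 was at 36 and 46 (34% and 52%) and AT5G04760 at 38 and 46 (45.5% and 53.6%). NFYC2 was at 31 and 37 (32.4% and 43.4%). DREB2A, a factor of dehydration and heat, had no member under EtOH and 13 under ABA (all genes 0.0875% and 9.14%), and HSFA6A, a heat shock factor, had 1 and 14 (0.27% and 11.1%). Their EtOH lists hold 15 and 32 peaks and their ABA lists 1517 and 1861, and what underlies this was not tested. FBH3 had 8 members under EtOH and 3 under ABA (6.5% and 1.24%). The 3 kept were WRKY7, WRKY22 and WRKY47, and the 5 lost were WRKY21, WRKY27, WRKY40, WRKY51 and WRKY61. With equal lists, under EtOH and ABA, MYB3 was at 15 and 21 members, MYB44 at 36 and 35 and AT5G04760 at 38 and 43. NFYC2 was then at 31 and 30, DREB2A at 0 and 0, HSFA6A at 1 and 0 and FBH3 at 3 and 3.

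**Figure D5:**
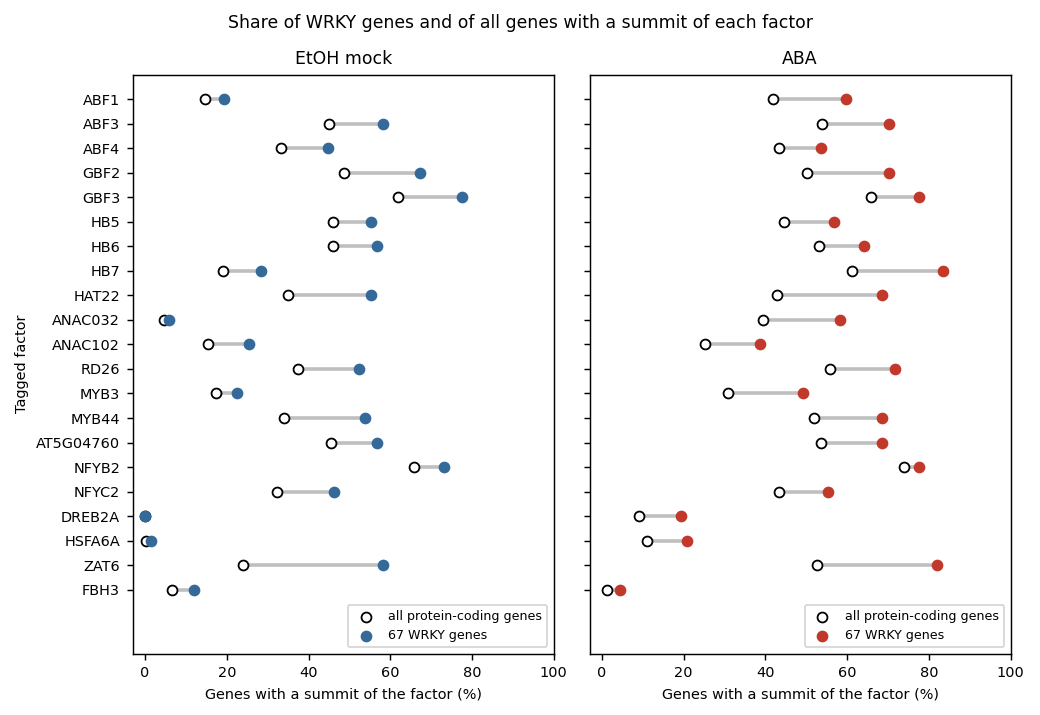
Share of the 67 WRKY genes (filled) and of all protein-coding genes (open) with a summit of each factor, in percent, under EtOH (left) and ABA (right). The filled circle lies to the right of the open one for 21 of the 21 factors under ABA, with the widest gap for ZAT6 (82.1% against 52.6%).

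Genes that work with WRKY proteins were counted in the same way, against 75.5% of all genes with more factors under ABA and medians over all genes of 9 and 5. With equal lists, where 32.4% of all genes had more under ABA, the counts were 4 of the 9 MAP kinase genes, 6 of the 17 salicylic acid genes, 3 of the 5 camalexin genes and 2 of the 5 VQ genes. In the lists as deposited the counts were higher. Of 9 genes of the MAP kinase cascades that phosphorylate WRKY proteins, 8 had more factors under ABA and 1 (MPK3, 17 against 18) had fewer, with medians of 10 under ABA and 4 under EtOH. MKK9 had 19 and 14, MKK5 had 16 and 12, and MPK6 and MPK4 had 3 each under ABA. Of 17 genes of salicylic acid defence, 15 had more factors under ABA, with medians of 14 and 10. Among them EDS1 and PAD4, which act as a complex in immunity, had 18 and 15 each, the salicylic acid receptor gene NPR1 had 14 and 8, and PR1, a marker of the response, had 1 in both treatments. Of 5 genes of camalexin synthesis, a pathway under WRKY33, 4 had more factors under ABA, with PAD3 at 12 and 5, CYP79B2 at 14 and 7, and CYP71A13 at 0. Of 5 genes of VQ proteins, which bind WRKY domains, 4 had more under ABA, with MKS1 at 16 and 8 and SIB1 at 10 in both. None of these genes passed the exact sign test after adjustment.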

How the data were processed

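ChIP-seq libraries of 21 tagged factors under ABA and EtOH were used as 42 peak lists deposited by the authors, with the replicates of a group pooled. Bowtie 0.12.7, MACS2 2.0.10 and TAIR10 appear in the submitters' processing notes, without their roles. The lowest −log10 p of a list as deposited is about 16, apart from GBF3 under ABA (17.98) and NFYB2 under ABA (19.25) and EtOH (17.58). The authors' fold enrichment (a ratio) and the authors' −log10 p were used to order or select peaks of 1 list at a time. The summit position was taken as deposited by the authors. Lists hold 15 to 18096 peaks. Without read counts the depth is unknown, and no interval was computed.

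Gene positions and names were read from NCBI's table for TAIR10.1, and none of its coordinates is printed. Fewest summits fell inside genes without a shift (33.9%, against 34.9% and 35.0% at 50 bp to either side). Promoter motifs and the side of a gene by strand were not analysed here. Members, lists and tests were chosen with earlier results of these data known.

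The rule for named members took the 10 with the most factors under ABA, the 8 with the largest net gain and the 5 with the most negative net change, of which 1 had a net loss. It added members linked to ABA, drought or senescence, members without a factor, the strongest member peak of each ABA list and the 3 members most like the leading one. Other members were named after their values were seen. The sign test was checked on simulated data (Python 3.11.15, scipy 1.17.1). There the factors were independent, and gains and losses were equally likely at unchanged genes, unlike in these data. The check thus does not bear on the p-values printed here. Alternatives were windows of 1000 and 500 bp, the nearest gene only, peak overlap, a −log10 p of at least 32 and lists of equal length, among others. Whether the pooled replicates were separate cultures is not stated.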

Additional observations from a re-analysis of the deposited data

How the results depend on the processing

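Direction over the members and over all genes was the same in each alternative, with more genes gaining than losing factors. No gene passed the adjusted test in any. The count of members with at least 10 factors went from 45 under ABA and 29 under EtOH to 26 and 17 in a window of 500 bp (medians 8 and 5) and to 28 and 14 when a −log10 p of 32 or more was required (medians 7 and 5). Over all genes the shares with at least 10 factors were 28.1% under ABA and 15.5% under EtOH at 500 bp. They were 26.4% and 10.9% at that −log10 p. Members with fewer factors under ABA numbered 3 at 1000 bp, 4 at 500 bp, 2 with the nearest gene only, 0 at −log10 p of at least 32 and 18 with lists of equal length, where 27 had more and the ABA median was 9. Over all genes 4.19% had fewer at 1000 bp, 4.87% at 500 bp and 5.22% with the nearest gene only. The share was 3.02% at −log10 p of at least 32 and 27.1% with equal lists. With the nearest gene only, 9 of the members with at least 10 factors under ABA fell below 10. A further 6 members had none left under ABA (WRKY10, WRKY19, WRKY24, WRKY43, WRKY55 and WRKY71). At least 10 factors under ABA were then found at 53.7% of the members and 26.5% of all genes. In the main count the shares were 67.2% and 48.1%. How the 6 members with none left compare with all genes was not tested. Members with an unadjusted p below 0.05 fell from 13 to 8 at 500 bp and to 0 with equal lists. Over all genes 0.794% had such a p with more gains when the lists were equal. Among the 27 members taken for their number of factors, net change or known role, net changes turned in sign for WRKY11 at 1000 bp (-4) and 500 bp (-3), for WRKY40 at 500 bp (-2), for WRKY23 by peak overlap (4) and at −log10 p of at least 32 (3), and with equal lists for WRKY15 (-1), WRKY22 (-3), WRKY25 (-1), WRKY26 (-3), WRKY40 (-1) and WRKY48 (-1). Over all 67 members 14 turned with equal lists, WRKY27 among them (13 against 14 factors). The causes of these turns were not tested, and the turns were not compared with those over all genes. No paired analysis was possible because each list pools its replicates, and for the same reason no replicate could be left out.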
